A study of Mus musculus with 8 samples.

Results

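Cytochromes P450 of families 1 to 4 were examined in the distal colon of WT and Hsf1 null mice before and after AOM-DSS treatment. The members were all gene symbols in the deposited table of raw counts that begin with Cyp and a family number from 1 to 4, followed by a subfamily letter and a gene number. This gave 38 of the 15859 genes in the table, in 16 subfamilies, and 32 of the 38 passed the filter of a mean normalized count above 5, among 14371 genes tested in all. The 6 members below the filter (Cyp2a12, Cyp2d11, Cyp2d40, Cyp2r1, Cyp4f39 and Cyp4f41-ps) had between 0 and 10 counts in every library, and no difference in them was detectable at this depth.

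RNA was measured by poly(A) RNA-seq in 8 male mice, 2 per group, on a BALB/c x 129SvEV background. The groups were WT day 0 (untreated WT littermates), Hsf1 null day 0 (untreated mice that lack the heat shock transcription factor HSF1 in the whole body, so that no cell type can be singled out as the one in which the loss acts), WT day 15 and Hsf1 null day 15. Treated mice of both genotypes received 10 mg/kg azoxymethane (AOM), a colon carcinogen, by intraperitoneal injection at 8 weeks of age and then 1 course of 1.5% dextran sulfate sodium (DSS), an agent toxic to colon epithelium, given for 5 days as drinking water. The sample titles place them at day 15, whereas the protocol in the labels ends directly after DSS, and the labels give 10 weeks as the age of all mice.

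P450 enzymes are heme proteins, most of them in the membrane of the endoplasmic reticulum, that insert an oxygen atom into small lipophilic molecules with electrons passed on by P450 oxidoreductase. Families 1 to 3 handle mostly drugs, carcinogens and steroids, with a share of fatty acid oxidation in family 2, while family 4 hydroxylates fatty acids and leukotrienes. In the gut they are found mainly in the epithelium, where nuclear receptors set their level, and they are known to fall in inflamed tissue.

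Total counts per library ranged from 2553348 to 12440257, and replicate 2 of both day 0 groups had the smallest libraries. Hsf1, the targeted gene, was at 40.5 and 36.5 CPM (read counts scaled to a common library size) in WT day 0, 13.96 and 11.9 in Hsf1 null day 0, 50.5 and 45.9 in WT day 15, and 13.5 and 9.09 in Hsf1 null day 15, so that every library went with its genotype label. The defining markers of colon epithelium were present in all libraries, with a summed level of the 8 epithelial markers between 9799 and 22123 CPM. Of 10 hepatocyte markers 6 had counts, with a summed level between 61.3 and 238 CPM, most of it from Ttr (4.33 to 163 CPM) and Tat (22.7 to 54.7 CPM), and Apoh, Fgb, Fga and Hpx had no entry among the counts. Each value below comes from 1 mouse, and values are given in the order replicate 1, replicate 2.

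The members that changed lie mostly in 2 gene clusters. All 10 Cyp2d members lie at chr15:82370527-82794294 (GRCm38, named mm10 in the submitters' processing notes), and 5 of the 6 Cyp2c members lie close together on chromosome 19, from Cyp2c55 at chr19:39007019-39042693 to Cyp2c40 at chr19:39767071-39812814. The Cyp2d cluster lies 5.87 to 6.29 Mb from Hsf1 on the same chromosome, and alleles that travel with the null allele and loss of HSF1 cannot be told apart for these genes. Positions came from GENCODE M21 for 36 members. Cyp2c44 (listed as Cyp2c23) and Cyp2d13, annotated as a transcribed pseudogene, were placed by RefSeq on GRCm38.p6.

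Some genes within a cluster resemble each other closely, which bears on their counts. The 30 coding bases around the cysteine that holds the heme are shown for 4 Cyp2c members and 2 Cyp2d members, from the GRCm38 transcripts, with capitals at the bases that differ from the first gene of each subfamily.
Cyp2c55, chr19:39038232-39042036, plus strand: ttctcaataggaaagcgaatgtgcgtggga
Cyp2c40, chr19:39767471-39773833, minus strand: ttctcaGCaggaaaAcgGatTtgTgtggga
Cyp2c67, chr19:39609242-39615629, minus strand: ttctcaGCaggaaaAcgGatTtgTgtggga
Cyp2c68, chr19:39689234-39699270, minus strand: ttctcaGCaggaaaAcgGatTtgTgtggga
Cyp2d34, chr15:82616193-82616322, minus strand: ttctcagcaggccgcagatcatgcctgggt
Cyp2d10, chr15:82403077-82403206, minus strand: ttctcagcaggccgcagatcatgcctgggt
Each of these stretches is split by an intron, so the coordinates cover more than 30 bases. Cyp2c40, Cyp2c67 and Cyp2c68 were identical here and differed from Cyp2c55 at 6 bases, and Cyp2d10 was identical to Cyp2d34. Over whole transcripts, 72.1% of all 50-base words of Cyp2c40 occur in another gene, 52.8% of those of Cyp2c67, 43.3% of those of Cyp2c68, 40.5% of those of Cyp2d10 and 29.0% of those of Cyp2d9. Counts of these genes are therefore uncertain one by one, since the counting could split or drop shared reads. Cyp2c55 (0.514%), Cyp2f2, Cyp3a13 and Cyp2s1 (0 each) share next to no words with other genes.

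The 38 members together made up 1605 and 2144 CPM in WT day 0, 2499 and 1787 CPM in Hsf1 null day 0, 634 and 474 CPM in WT day 15, and 3097 and 1409.96 CPM in Hsf1 null day 15. Both treated WT mice thus lay below all 6 other mice. Cyp2d34 had the highest level per length, at 128 and 185 CPM per kb of exon in WT day 0, followed by Cyp2c55 at 102 and 145, and these ranges overlapped. Among the next in WT day 0 were Cyp2d10 (43.5 and 46.7 CPM per kb), Cyp2f2 (37.4 and 45.1), Cyp3a13 (31.1 and 54.9) and Cyp2s1 (26.9 and 56.2), whose ranges overlapped.

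**Figure D1:**
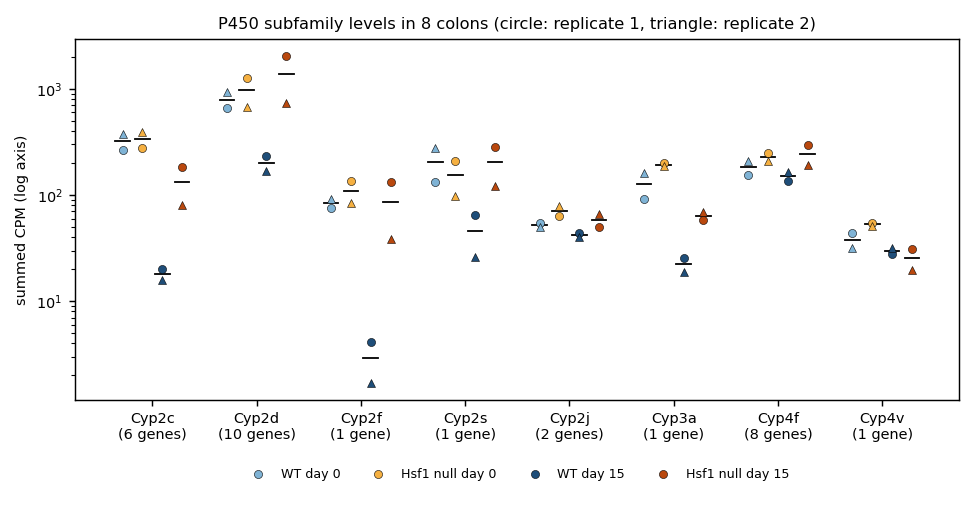
Summed CPM (log axis) of 8 P450 subfamilies in each mouse, with circles for replicate 1, triangles for replicate 2 and a line at the mean of each group. WT day 15 lies below the other groups in Cyp2c (20.1 and 15.7 CPM), Cyp2d (232 and 167), Cyp2f (4.09 and 1.69), Cyp2s and Cyp3a, while Cyp4f and Cyp4v show smaller differences.

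In WT colon, treatment went with lower levels of P450 genes of families 2 and 3, while in family 4 Cyp4f14 was called lower and Cyp4f18 higher. Of the 32 tested members, 12 were called lower at day 15 than at day 0 (37.5%, where 4.27% of all tested genes were called lower) and 1 was called higher (3.12%, against 3.47% of all genes), with edgeR's quasi-likelihood test, an adjusted p under 0.05 and a log2 fold change beyond 1. The 12 were Cyp2c40, Cyp2c55, Cyp2c68, Cyp2d9, Cyp2d10, Cyp2d12, Cyp2d13, Cyp2d26, Cyp2f2, Cyp2s1, Cyp3a13 and Cyp4f14, and the member that rose was Cyp4f18. DESeq2 called these 13 and also Cyp2d34, Cyp2d37-ps and Cyp2u1, each lower. The median log2 fold change was -1.59 over the 32 members and 0.00 over all genes tested. For 23 of the 32 members (71.9%) both treated WT mice lay below both untreated WT mice, which was the case for 31.5% of all genes. These counts depended on single mice: 3 members were called without WT day 15 replicate 2, 4 without WT day 0 replicate 2 (3 of the 13 among them), and 8 without WT day 0 replicate 1 or without Hsf1 null day 0 replicate 1. Calls over all genes, 1112 with all mice, also fell in these fits, to 92, 133, 485 and 891 in the same order. Across the 3 comparisons with calls, each of the 29 calls of a member was lost under 1 to 10 of the 14 to 17 alternative settings tried for it.

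In Hsf1 null colon fewer members passed the same test. At day 15, 3 of 32 members were called lower than at day 0 (9.38%, against 6.48% of all tested genes), namely Cyp2b10, Cyp3a13 and Cyp4v3, and 0 were called higher, against 5.3% of all genes. At an unadjusted p under 0.05, 2 members were higher, and DESeq2 called 1 higher, Cyp4f18. DESeq2 called Cyp2c55 lower and gave Cyp2b10 no adjusted p, so that Cyp2b10 could not be called by it. The median log2 fold change was -0.25 over the members and 0.05 over all genes, and 10 of 32 members (31.2%) did not overlap and were lower, as were 30.3% of all genes. The share without overlap lay near the background. The count of 3 fell to 0 without Hsf1 null day 0 replicate 2 or Hsf1 null day 15 replicate 2, to 1 of the 3 without Hsf1 null day 0 replicate 1, and was 2 without either WT day 0 library. Without Hsf1 null day 15 replicate 1 the count was 1, and 0 of the 3 were among the calls. Over all genes the 1692 calls fell to 0 without Hsf1 null day 0 replicate 2, 361 without Hsf1 null day 15 replicate 2 and 487 without Hsf1 null day 15 replicate 1, but not without Hsf1 null day 0 replicate 1 (1891).

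**Figure D2:**
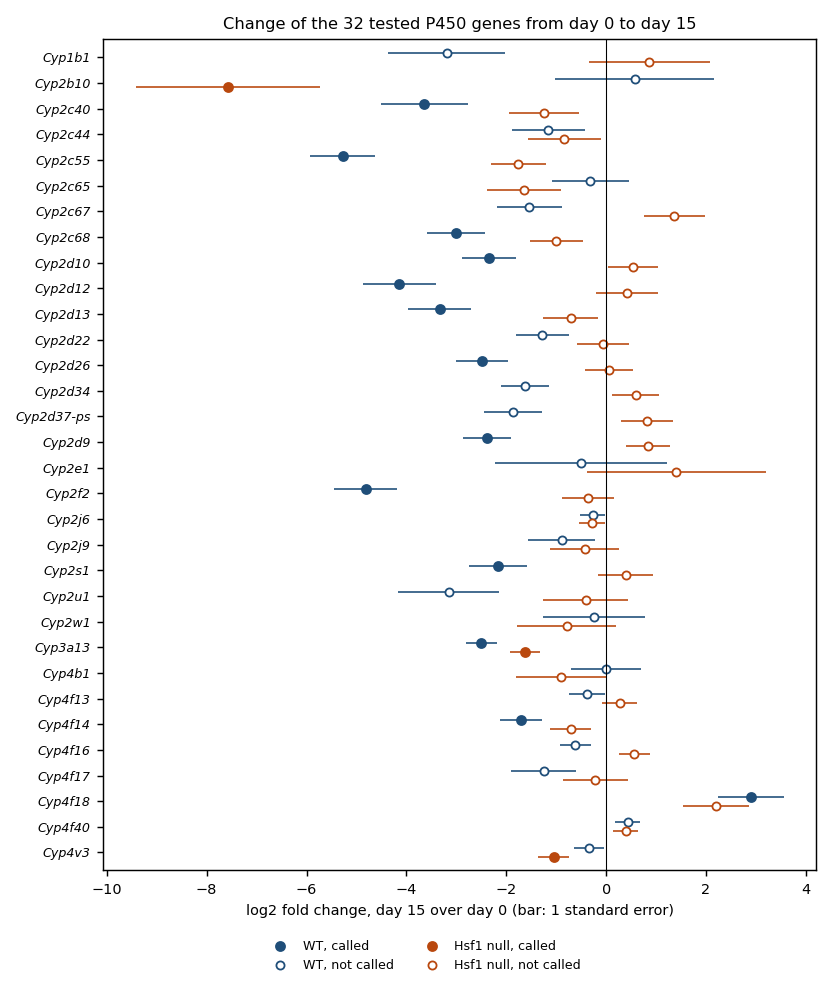
Log2 fold change from day 0 to day 15 of the 32 tested members in WT (blue) and in Hsf1 null mice (orange), with bars of 1 standard error and filled circles for calls. In WT mice 29 of the 32 values are below 0, in Hsf1 null mice 18 of 32.

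Untreated mice of the 2 genotypes were compared to see whether P450 levels differed before treatment. Of the 32 members, 0 were called in either direction with edgeR or DESeq2, as were 0% of all genes with edgeR. At an unadjusted p under 0.05 (edgeR) there were 2 lower in WT (Cyp2b10 and Cyp2c65) and 1 higher (Cyp1b1). These were 3 of 32 members, where 6.29% of all genes passed. The median log2 fold change of WT over Hsf1 null was -0.34, against 0.01 over all genes, and 23 of 32 values were below 0. All 8 tested Cyp2d members were on the lower side in WT, with log2 fold changes from -0.84 to -0.08 and adjusted p of 0.835 or more (edgeR).

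At day 15 the treated WT mice had lower P450 levels than the treated Hsf1 null mice. Of the 32 members, 13 were called lower in WT (40.6%, where 1.91% of all tested genes were called lower): Cyp2c55, Cyp2c67, Cyp2c68, Cyp2d9, Cyp2d10, Cyp2d12, Cyp2d13, Cyp2d26, Cyp2d34, Cyp2d37-ps, Cyp2f2, Cyp3a13 and Cyp4f14. DESeq2 called these 13 and also Cyp2c40, Cyp2d22, Cyp2s1 and Cyp2u1, each lower. No member was called higher in WT by edgeR or DESeq2 (0 of 32, against 1.25% of all genes), and 0 were higher at an unadjusted p under 0.05. The median log2 fold change was -1.65 over the members and 0.04 over all genes. For 22 of 32 members (68.8%) each WT mouse had a lower value than each Hsf1 null mouse, which was the case for 26.3% of all genes. This comparison shares the WT day 15 mice with the comparison of WT over time, and 10 members were called in both. The 13 calls rested on the estimate of spread from all 8 mice: 0 members were called when only the 4 treated mice were fitted, and 0 without WT day 15 replicate 2 or without either Hsf1 null day 0 library. Without Hsf1 null day 15 replicate 1, 2 were called, and without WT day 15 replicate 1, 7, of which 6 were among the 13. Over all genes the 455 calls fell to 6 with only the treated mice, 19 without WT day 15 replicate 2, 12 without either Hsf1 null day 0 library, 30 without Hsf1 null day 15 replicate 1 and 345 without WT day 15 replicate 1.

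Whether the change over time differed by genotype was tested as an interaction. With edgeR 0 of 32 members passed, against 0.00696% of all genes (1 of 14371). An unadjusted p under 0.05 was found for 15 of the 32 members, against 8.62% of all genes. Of these 15, 14 were negative, that is, with a change in WT toward lower values than in Hsf1 null mice. The smallest adjusted p among the members was 0.21, for Cyp2f2. DESeq2 called 7 (Cyp2c55, Cyp2d9, Cyp2d10, Cyp2d12, Cyp2d34, Cyp2f2 and Cyp2s1), all negative, and edgeR called 5 without Hsf1 null day 15 replicate 2. Whether the response of these genes differs between the genotypes thus depended on the test.

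**Figure D3:**
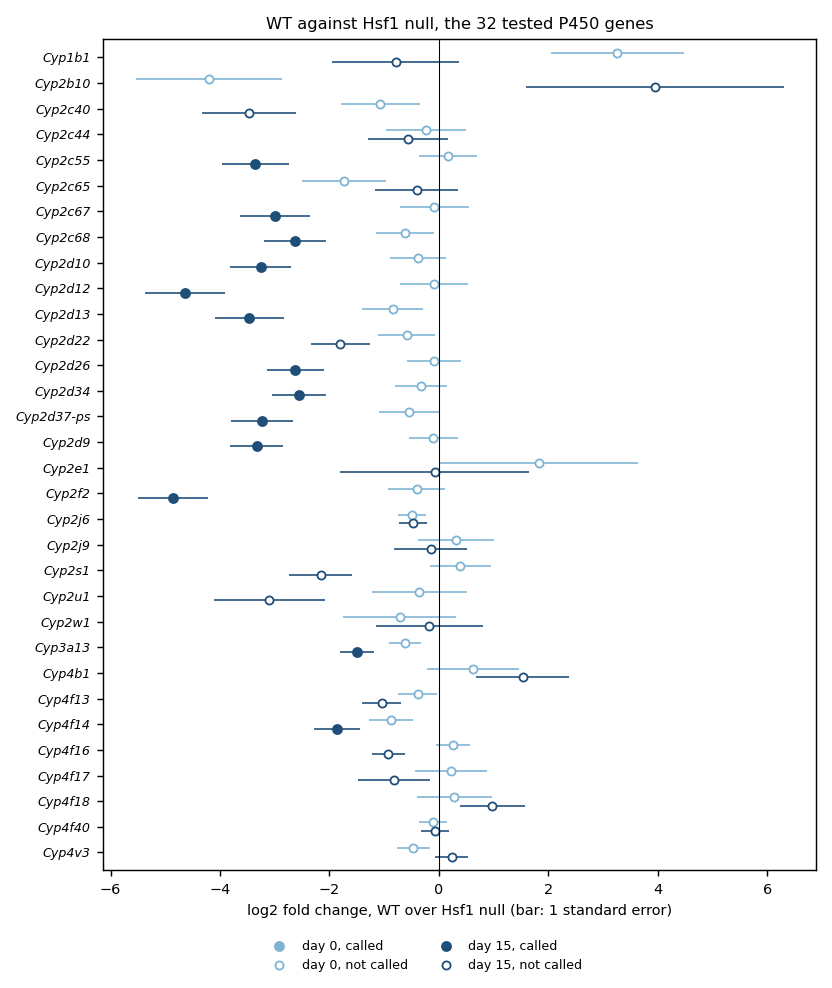
Log2 fold change of WT over Hsf1 null at day 0 (light blue) and day 15 (dark blue) for the 32 tested members, with bars of 1 standard error and filled circles for calls. No day 0 value is filled, and 13 day 15 values are, all below 0.

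The Cyp2c subfamily oxidizes arachidonic acid, other fatty acids and many drugs. Summed over its 6 members it was at 266 and 374 CPM in WT day 0, 279 and 394 in Hsf1 null day 0, 20.1 and 15.7 in WT day 15, and 184 and 79.8 in Hsf1 null day 15. The mean of WT day 15 was 17.9-fold below that of WT day 0 and 7.37-fold below that of Hsf1 null day 15, and that of Hsf1 null day 15 was 2.55-fold below its own day 0. Most Cyp2c counts of untreated mice came from Cyp2c55, a hydroxylase of arachidonic and linoleic acid with high levels in the colon.

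Cyp2c55 was at 203 and 289 CPM in WT day 0, 157 and 283 in Hsf1 null day 0, 3.57 and 9.19 in WT day 15, and 98.3 and 31.3 in Hsf1 null day 15. Treated mice lay below untreated mice of their genotype without overlap, and treated WT mice lay lowest. The log2 fold change was -5.28 in WT (SE 0.66, adjusted p = 0.00597, edgeR), -1.76 in Hsf1 null mice (SE 0.55, adjusted p = 0.0616, edgeR) and -3.35 between the treated genotypes (SE 0.61, adjusted p = 0.0258, edgeR). Its share of all Cyp2c counts was 76.3% and 77.2% in WT day 0 and 17.7% (95% Wilson interval 13.4 to 23.2) and 58.4% (50.4 to 66.0) in WT day 15, intervals that cover counting error only. The treated WT mice thus differed in which Cyp2c transcripts remained.

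Cyp2c68 was at 50.8 and 69.9 CPM in WT day 0, 99.5 and 84.1 in Hsf1 null day 0, 11.7 and 3.06 in WT day 15, and 64.4 and 27.7 in Hsf1 null day 15. Its log2 fold change was -3.01 in WT (SE 0.58, adjusted p = 0.0177) and -2.63 between the treated genotypes (SE 0.57, adjusted p = 0.0417, both edgeR). The values of its near-copies Cyp2c40 and Cyp2c67, which took far fewer counts, can include reads of Cyp2c68. Cyp2c40 was at 4.02 and 7.15 CPM in WT day 0, 11.7 and 10.8 in Hsf1 null day 0, 0.783 and 0 in WT day 15, and 5.12 and 4.41 in Hsf1 null day 15, with a log2 fold change in WT of -3.64 (SE 0.87, adjusted p = 0.0345, edgeR). This call was lost under 8 of 17 alternative settings, among them the replicate block (adjusted p = 0.0514, edgeR). Cyp2c67 was at 4.51 and 5.56 CPM in WT day 0, 5.67 and 4.67 in Hsf1 null day 0, 2.78 and 0.528 in WT day 15, and 14.1 and 13.0 in Hsf1 null day 15. It was called between the treated genotypes (log2 fold change -2.99, SE 0.64, adjusted p = 0.0398, edgeR), where treated Hsf1 null mice lay above untreated ones and treated WT mice below untreated ones. The other Cyp2c members, Cyp2c44 and Cyp2c65, were between 0.609 and 8.62 CPM and called in no comparison by edgeR or DESeq2.

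Promoters were searched for short motifs because 3 of the 6 Cyp2c members were called lower in WT over time, although Cyp2c67 and its copies differed in Hsf1 null mice. Of the 38 members 29 had a promoter in the RefSeq table (GRCm38.p6, 33 windows from 250 bases before to 50 after the start), and both strands were searched. The letters CAAAGTCCA, a core of the site of the liver and gut factor HNF4, occurred in 4 of 33 member windows (12.1%) and in 0.475% of all 32851 windows, and all 4 belonged to Cyp2c genes. Cyp2c40, Cyp2c67 and Cyp2c68 are near-copies, so these are not independent matches. The TATA box (TATAAA) occurred in 33.3% of member windows and 13.6% of all, the core of the heat shock element that HSF1 binds (GAANNTTC or TTCNNGAA) in 18.2% and 15.1%, the dioxin response element core (GCGTG) in 30.3% and 32.4%, and an HNF1 site (GTTAATNAT) in 3.03% and 0.801%. Among the called members with a window, heat shock element cores were found before Cyp2d10 and Cyp4f18 and after the start of Cyp2d26, and none was in a Cyp2c window.

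The 120 bases from 130 to 11 bases before the start are shown for the 5 Cyp2c genes with a window, with the letters of the HNF4 core and the TATA box in capitals.
Cyp2c55, chr19:39006889-39007008, plus strand: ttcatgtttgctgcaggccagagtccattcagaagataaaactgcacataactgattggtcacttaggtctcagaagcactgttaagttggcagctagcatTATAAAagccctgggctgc
Cyp2c65, chr19:39060876-39060995, plus strand: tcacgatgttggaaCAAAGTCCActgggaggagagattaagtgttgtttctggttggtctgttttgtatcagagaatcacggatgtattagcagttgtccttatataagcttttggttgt
Cyp2c67, chr19:39649053-39649172, minus strand: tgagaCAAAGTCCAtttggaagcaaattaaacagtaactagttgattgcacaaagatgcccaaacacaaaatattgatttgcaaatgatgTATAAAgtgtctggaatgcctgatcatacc
Cyp2c68, chr19:39741112-39741231, minus strand: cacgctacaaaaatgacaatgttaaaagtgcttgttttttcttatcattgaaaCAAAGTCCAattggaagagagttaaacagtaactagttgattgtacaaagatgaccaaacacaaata
Cyp2c40, chr19:39812825-39812944, minus strand: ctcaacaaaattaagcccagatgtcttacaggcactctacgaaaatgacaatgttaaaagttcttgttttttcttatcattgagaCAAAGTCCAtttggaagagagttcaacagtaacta
Cyp2c55, with the strongest fall in WT, lacks these HNF4 letters in its window, and Cyp2c65, which was not called, has them. Cyp2c40, Cyp2c67 and Cyp2c68, which have them, had log2 fold changes in WT of -3.64, -1.54 and -3.01, and Cyp2c65 of -0.32. A relation of the motif to the change was not tested, and no match says only that these letters are not in the window.

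The Cyp2d subfamily, the mouse counterpart of the human drug-metabolizing enzyme CYP2D6, took the most counts of any subfamily in all 8 mice. Its sum was at 653 and 925 CPM in WT day 0, 1269.5 and 671 in Hsf1 null day 0, 232 and 167 in WT day 15, and 2048 and 734 in Hsf1 null day 15. The mean was 3.97-fold lower at day 15 than at day 0 in WT, and the ratio of day 15 to day 0 in Hsf1 null mice was 1.43 with overlapping values. All 8 tested members had a log2 fold change below 0 in WT, from -4.14 to -1.28, of which 5 were called (4.27% of all genes were called lower), and all 8 were below 0 between the treated genotypes, from -4.64 to -1.80, of which 7 were called (1.91% of all genes were called lower). In Hsf1 null mice the 8 changes lay between -0.71 and 0.84, and none was called (smallest adjusted p = 0.22, edgeR). At an unadjusted p under 0.05 there were 0.

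Cyp2d12 had the largest change of the cluster. It was at 85.2 and 134 CPM in WT day 0, 152 and 78.0 in Hsf1 null day 0, 6.61 and 5.70 in WT day 15, and 261 and 47.1 in Hsf1 null day 15. The treated WT mice lay far below every other mouse, and the treated Hsf1 null mice differed from each other by more than the untreated mice did. The log2 fold change was -4.14 in WT (SE 0.72, adjusted p = 0.0132) and -4.64 between the treated genotypes (SE 0.74, adjusted p = 0.0202, both edgeR).

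Cyp2d34, with 51.4% to 73.9% of all Cyp2d counts in every mouse, was at 355 and 513 CPM in WT day 0, 742 and 345 in Hsf1 null day 0, 157 and 123 in WT day 15, and 1174 and 467 in Hsf1 null day 15. It was called between the treated genotypes (log2 fold change -2.55, SE 0.50, adjusted p = 0.0310, edgeR), and its change in WT was -1.63 (SE 0.48, adjusted p = 0.0639, edgeR). Its share of the Cyp2d counts was higher in both treated WT mice (67.6% and 73.9%) than in the other 6 (51.4% to 63.6%).

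Cyp2d9, a testosterone hydroxylase typical of male liver, was at 64.2 and 107 CPM in WT day 0, 108 and 73.7 in Hsf1 null day 0, 21.7 and 10.7 in WT day 15, and 225 and 101 in Hsf1 null day 15. Cyp2d10 was at 71.6 and 77.0, 123 and 68.6, 15.8 and 13.3, and 222 and 58.3 CPM in the same groups. Both genes share many words with other Cyp2d genes, and they had similar folds. The log2 fold changes in WT were -2.39 for Cyp2d9 (SE 0.47, adjusted p = 0.0197) and -2.35 for Cyp2d10 (SE 0.54, adjusted p = 0.0311), and those between the treated genotypes were -3.33 (SE 0.49, adjusted p = 0.0158) and -3.26 (SE 0.55, adjusted p = 0.0225, all edgeR). Cyp2d9 had the smallest p of all Cyp2d members between the treated genotypes.

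Cyp2d26 lies at the far end of the cluster and shares only 10.5% of its words. It was at 19.8 and 19.5 CPM in WT day 0, 26.9 and 14.01 in Hsf1 null day 0, 5.13 and 1.80 in WT day 15, and 26.2 and 17.1 in Hsf1 null day 15, with log2 fold changes of -2.48 in WT (SE 0.52, adjusted p = 0.0245) and -2.62 between the treated genotypes (SE 0.52, adjusted p = 0.0328, both edgeR). Cyp2d13, annotated as a pseudogene, was at 17.1 and 33.0, 53.8 and 33.1, 2.78 and 2.01, and 42.2 and 11.6 CPM in the 4 groups in the same order, and was called in WT over time (log2 fold change -3.33, adjusted p = 0.0173, edgeR) and between the treated genotypes (-3.47, adjusted p = 0.0258, edgeR). The pseudogene Cyp2d37-ps was at 4.02 and 4.76, 7.64 and 4.67, 1.39 and 0.951, and 15.4 and 7.09 CPM, and was called by edgeR between the treated genotypes only (log2 fold change -3.23, SE 0.57, adjusted p = 0.0240, edgeR). Whether reads of the coding neighbours entered the counts of these pseudogenes was not tested. Cyp2d22, the member nearest to Hsf1, was at 8.66 to 80.0 CPM and called in no comparison by edgeR, while DESeq2 called it lower in WT between the treated genotypes (log2 fold change -1.81, adjusted p = 0.00742, DESeq2).

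Cyp2f2 is known as the enzyme that activates naphthalene in the club cells of the lung. In these colons it was at 75.7 and 91.3 CPM in WT day 0, 135 and 84.8 in Hsf1 null day 0, 4.09 and 1.69 in WT day 15, and 134 and 38.1 in Hsf1 null day 15. Both treated WT mice lay below every other mouse, and the treated Hsf1 null mice overlapped the untreated ones. The log2 fold change was -4.82 in WT (SE 0.64, adjusted p = 0.00597) and -4.87 between the treated genotypes (SE 0.64, adjusted p = 0.0137, both edgeR), and the change in Hsf1 null mice was -0.36 (SE 0.52, adjusted p = 0.669, edgeR). Between the treated genotypes it had the smallest p of the 32 members, and its interaction was -4.46 (SE 0.80, unadjusted p = 0.000249, adjusted p = 0.21, edgeR). It shares no words with another gene, but an antisense gene model overlaps it, and whether the counting used strand is not given in the sources used here.

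Cyp2s1, an epithelial enzyme induced by the dioxin receptor AHR, was at 133 and 278 CPM in WT day 0, 211 and 98.8 in Hsf1 null day 0, 64.9 and 26.1 in WT day 15, and 286 and 123 in Hsf1 null day 15. Its log2 fold change in WT was -2.16 (SE 0.58, adjusted p = 0.050, edgeR), just inside the threshold, and it was lost under 8 of 17 alternative settings. Between the treated genotypes it was also -2.16 (SE 0.58), with an adjusted p of 0.0696 (edgeR).

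Cyp3a13 is the family 3 enzyme in these data, of the subfamily that handles the widest range of drugs. It was at 91.9 and 162 CPM in WT day 0, 202 and 186 in Hsf1 null day 0, 25.7 and 19.0 in WT day 15, and 57.5 and 68.6 in Hsf1 null day 15. Treated mice lay below untreated mice in both genotypes, and WT below Hsf1 null mice at day 15, with no overlap in any of these. DESeq2 called Cyp3a13 and Cyp2c55 lower in both genotypes. With edgeR, Cyp3a13 was the 1 member called lower in both, with log2 fold changes of -2.50 in WT (SE 0.31, adjusted p = 0.00597) and -1.62 in Hsf1 null mice (SE 0.30, adjusted p = 0.0167, both edgeR). The difference at day 15 was -1.50 (SE 0.31, adjusted p = 0.0352, edgeR), a call lost under 9 of 16 alternative settings, among them the replicate block (adjusted p = 0.0501, edgeR). The difference at day 0 was -0.62 (SE 0.30, adjusted p = 0.794, edgeR), and the interaction was -0.88 (SE 0.42, unadjusted p = 0.0641, edgeR).

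The Cyp4f subfamily inactivates leukotrienes and hydroxylates long fatty acids. Its sum was at 155 and 208 CPM in WT day 0, 247 and 209 in Hsf1 null day 0, 135 and 166 in WT day 15, and 297 and 194 in Hsf1 null day 15, with overlapping values within each genotype. Beneath this sum, 2 members moved in opposite directions in WT. Cyp4f14, an epithelial hydroxylase of leukotriene B, was at 40.1 and 67.9 CPM in WT day 0, 92.8 and 103 in Hsf1 null day 0, 13.5 and 19.4 in WT day 15, and 83.6 and 35.8 in Hsf1 null day 15. Its log2 fold change was -1.70 in WT (SE 0.42, adjusted p = 0.0380) and -1.86 between the treated genotypes (SE 0.42, adjusted p = 0.0457, both edgeR). These calls were lost under 7 of 17 and 9 of 16 alternative settings.

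Cyp4f18 hydroxylates the same leukotriene in neutrophils and other leukocytes. It was at 5.59 and 1.99 CPM in WT day 0, 4.02 and 2.52 in Hsf1 null day 0, 13.0 and 50.1 in WT day 15, and 15.98 and 15.92 in Hsf1 null day 15. All treated mice lay above all untreated mice, and the log2 fold change was 2.90 in WT (SE 0.66, adjusted p = 0.0297) and 2.20 in Hsf1 null mice (SE 0.66, adjusted p = 0.0538, both edgeR). The call in WT was lost under 8 of 17 alternative settings, among them the replicate block (adjusted p = 0.0551, edgeR). Its gene lies on chromosome 8, apart from the other Cyp4f members on chromosome 17. All 10 leukocyte markers had counts, 4 of them were called higher in WT over time, 2 in Hsf1 null mice over time and 2 in WT against Hsf1 null mice at day 15, and their sum was 1000.2 and 318 CPM in WT day 0, 380 and 424 in Hsf1 null day 0, 1113 and 2514 in WT day 15, and 328 and 683 in Hsf1 null day 15. The mouse with the highest leukocyte sum also had the highest Cyp4f18. Hsf1 null day 15 replicate 1, with a leukocyte sum of 328 CPM, below both untreated Hsf1 null mice, had Cyp4f18 at 15.98 CPM. WT day 0 replicate 1, with a leukocyte sum of 1000.2 CPM, had Cyp4f18 at 5.59 CPM. The part of leukocyte numbers in the change of Cyp4f18 was not tested. In bulk tissue, fewer or more cells of a type and less or more RNA per cell cannot be told apart.

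The remaining tested Cyp4f members, Cyp4f13, Cyp4f16, Cyp4f17 and Cyp4f40, were called in no comparison, with changes in WT from -1.25 to 0.43 on the log2 scale. Cyp4v3, the mouse counterpart of a fatty acid hydroxylase of the eye, was at 44.1 and 31.8 CPM in WT day 0, 54.5 and 51.4 in Hsf1 null day 0, 28.01 and 32.001 in WT day 15, and 31.3 and 19.8 in Hsf1 null day 15. It was called lower in Hsf1 null mice (log2 fold change -1.05, SE 0.30, adjusted p = 0.0468, edgeR), with the smallest change of all calls, and the call was lost under 10 of 16 alternative settings (adjusted p up to 0.283, edgeR or DESeq2). At -0.35 in WT (SE 0.30, adjusted p = 0.476, edgeR) it was not called. Cyp4b1, an enzyme best known in lung, was at 2.55 and 0.794 CPM in WT day 0, 1.48 and 0.719 in Hsf1 null day 0, 1.22 and 2.53 in WT day 15, and 0.310 and 0.936 in Hsf1 null day 15, and was not called.

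Cyp2b10, the classic target of the drug-sensing receptor CAR, was barely expressed. It had 2 and 0 counts in WT day 0, 51 and 4 in Hsf1 null day 0, 5 and 0 in WT day 15, and 0 and 0 in Hsf1 null day 15. Its call in Hsf1 null mice (adjusted p = 0.0335, edgeR) rested on the counts of 51 and 4 in the untreated mice, and against a floor of 3 counts per library the treated mice were at least 6.49-fold lower. DESeq2 gave it no adjusted p (log2 fold change -6.75, unadjusted p = 0.00156, DESeq2), so it could not be called there.

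Cyp2j6, an epoxygenase of arachidonic acid in the intestine, was at 52.1 and 43.7 CPM in WT day 0, 61.2 and 74.0 in Hsf1 null day 0, 41.1 and 38.4 in WT day 15, and 47.2 and 63.3 in Hsf1 null day 15. Its log2 fold change in WT was -0.27 (SE 0.25, adjusted p = 0.518, edgeR). Cyp2u1, a fatty acid hydroxylase, was at 3.53 and 1.19 CPM in WT day 0, 3.37 and 3.23 in Hsf1 null day 0, 0.522 and 0 in WT day 15, and 3.26 and 1.74 in Hsf1 null day 15, with a log2 fold change in WT of -3.15 (SE 1.02, adjusted p = 0.0809, edgeR). Treated WT mice lay below the others, and DESeq2 called the gene lower in WT over time (adjusted p = 0.0410) and between the treated genotypes (adjusted p = 0.0472), where edgeR did not. Cyp2w1, known from fetal colon and colon tumours, was at 1.37 and 1.99 CPM in WT day 0, 2.22 and 3.23 in Hsf1 null day 0, 2.52 and 0.106 in WT day 15, and 1.71 and 1.34 in Hsf1 null day 15, and Cyp2j9 was at 1.97 to 6.35 CPM over all mice. Neither was called. The vitamin D hydroxylase Cyp2r1 had 3 and 0 counts in WT day 0, 3 and 0 in Hsf1 null day 0, 6 and 5 in WT day 15, and 0 and 2 in Hsf1 null day 15. Cyp2a12 had 1 and 1, 10 and 1, 0 and 0, and 2 and 0 counts in the same groups.

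Cyp2e1 oxidizes ethanol and is one of the enzymes that activate azoxymethane. It varied more between mice of a group than between groups, at 87.1 and 17.5 CPM in WT day 0, 24.5 and 3.23 in Hsf1 null day 0, 75.2 and 0.211 in WT day 15, and 0.620 and 79.0 in Hsf1 null day 15. No difference was called by edgeR or DESeq2, and the standard errors of the 4 log2 fold changes between groups were 1.73 to 1.81 with edgeR and 2.43 with DESeq2. Beside it, the sum of 8 adipocyte markers, a list added after these values were seen, of which edgeR and DESeq2 called 0 in any comparison and 0 passed an unadjusted p under 0.05, was 331 and 100.4 CPM in WT day 0, 119 and 26.6 in Hsf1 null day 0, 191 and 52.6 in WT day 15, and 26.8 and 259 in Hsf1 null day 15. Adipoq, an adipocyte hormone, was at 17.3, 4.76, 3.04, 0, 3.91, 0, 0 and 7.49 CPM in the same order. The 3 mice with the highest Cyp2e1 had the highest marker sums, and the part of attached fat in Cyp2e1 was not tested.

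Cyp1b1, a target of AHR that oxidizes polycyclic hydrocarbons and estradiol, was at 36.0 and 0.794 CPM in WT day 0, 2.71 and 0.719 in Hsf1 null day 0, 0.783 and 3.49 in WT day 15, and 3.41 and 3.88 in Hsf1 null day 15. The value of WT day 0 replicate 1 set its mean in WT day 0, and it was not called (log2 fold change in WT -3.19, SE 1.17, adjusted p = 0.114, edgeR). The same mouse had the highest sums of adipocyte markers (331 CPM) and of fibroblast markers (2545 CPM). The mice next in adipocyte sum, Hsf1 null day 15 replicate 2 (259 CPM) and WT day 15 replicate 1 (191 CPM), had Cyp1b1 at 3.88 and 0.783 CPM. The part of these cells in Cyp1b1 was not tested.

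**Figure D4:**
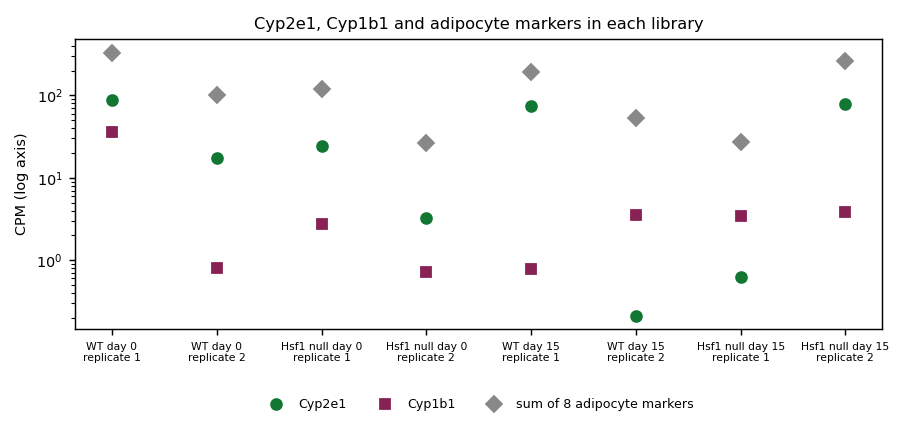
Level in CPM (log axis) of Cyp2e1 (green), Cyp1b1 (purple) and the sum of 8 adipocyte markers (grey) in each of the 8 libraries. Cyp2e1 is above 70 CPM in 3 libraries of 3 groups, in which the marker sum is between 191 and 331 CPM.

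The fall of the P450 genes in treated WT mice was set beside markers of the cells that express them. The sum of the epithelial markers was not lower in WT day 15 (14444 and 15527 CPM) than in WT day 0 (9799 and 14127 CPM), and in WT over time 0 of its 8 genes were called by edgeR or DESeq2, with 0 at an unadjusted p under 0.05. In Hsf1 null mice over time edgeR called 0 as well, with 2 higher at an unadjusted p under 0.05 and 2 higher by DESeq2. The 38 members together were 16.4% and 15.2% of the epithelial marker sum in WT day 0, 15.1% and 16.2% in Hsf1 null day 0, 4.39% and 3.05% in WT day 15, and 13.999% and 7.21% in Hsf1 null day 15. Relative to epithelial markers, too, both treated WT mice lay below all 6 other mice.

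Some markers of mature epithelial cells were lower in the same mice as the P450 genes and others were not. Of 7 goblet cell markers 3 were called lower in WT at day 15 (Tff3, Clca1 and Zg16), and their sum was 18413 and 26695 CPM in WT day 0, 26079 and 21492 in Hsf1 null day 0, 6968 and 9139 in WT day 15, and 38781 and 18697 in Hsf1 null day 15. Relative to this sum the members were at 8.72% and 8.03% in WT day 0, 9.58% and 8.31% in Hsf1 null day 0, 9.10% and 5.19% in WT day 15, and 7.99% and 7.54% in Hsf1 null day 15, so that 1 treated WT mouse lay within the range of the untreated mice. Of 10 absorptive colonocyte markers 2 were called lower in WT (Aqp8 and Slc26a3), and their sum was 6193 and 9733 CPM in WT day 0, 11894 and 11343 in Hsf1 null day 0, 4515 and 5394 in WT day 15, and 12093 and 7254 in Hsf1 null day 15. The median log2 fold change in WT was -1.73 over the goblet cell markers and -1.16 over the colonocyte markers, with 4 of 7 and 5 of 10 lower at an unadjusted p under 0.05 and 4 and 2 called lower by DESeq2. Markers that edgeR did not call in WT ranged from Car4 (log2 fold change -2.03), Slc9a3 (-1.97) and Fcgbp (-1.73) to Spdef (0.24) and Krt20 (0.64). In Hsf1 null mice over time, where no Cyp2d gene and not Cyp2f2 was called, the colonocyte markers Car1 (-1.88, adjusted p = 0.0377) and Slc26a3 (-3.27, adjusted p = 0.0126, both edgeR) were called lower. At an unadjusted p under 0.05 (edgeR) there were 2 colonocyte markers lower and 2 higher, and the median log2 fold change of the 10 was -0.06. Of the goblet cell markers edgeR called 0 (1 higher at an unadjusted p under 0.05 and 1 higher by DESeq2). Between the treated genotypes 3 goblet cell markers (Fcgbp, Clca1 and Zg16) and 1 colonocyte marker (Aqp8) were called lower in WT by edgeR, with 5 of 7 and 4 of 10 lower at an unadjusted p under 0.05 and 5 and 3 called lower by DESeq2. The part of these cells in the lower P450 levels was not tested. The subfamilies differed relative to these markers. Cyp2c was at 1.45% and 1.40% of the goblet cell marker sum in WT day 0 and at 0.288% and 0.172% in WT day 15. Cyp2d was at 3.55% and 3.47% in WT day 0 and at 3.32% and 1.82% in WT day 15, and Cyp4f at 0.842% and 0.781% and then at 1.94% and 1.81%, so that it was higher in treated WT mice on this scale. In Hsf1 null mice Cyp2c was at 1.07% and 1.83% of the goblet cell marker sum at day 0 and 0.475% and 0.427% at day 15, Cyp2d at 4.87% and 3.12% and then 5.28% and 3.93%, and Cyp4f at 0.946% and 0.973% and then 0.765% and 1.04%. Relative to the colonocyte marker sum in WT mice, Cyp2c was at 4.30% and 3.85% in WT day 0 and 0.445% and 0.292% in WT day 15, Cyp2d at 10.6% and 9.51% and then 5.13% and 3.09%, and Cyp4f at 2.50% and 2.14% and then 2.99% and 3.07%. Against the same sum, Cyp2c of Hsf1 null mice was at 2.34% and 3.47% at day 0 and 1.52% and 1.10% at day 15, Cyp2d at 10.7% and 5.91% and then 16.9% and 10.1%, and Cyp4f at 2.07% and 1.84% and then 2.45% and 2.67%.

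**Figure D5:**
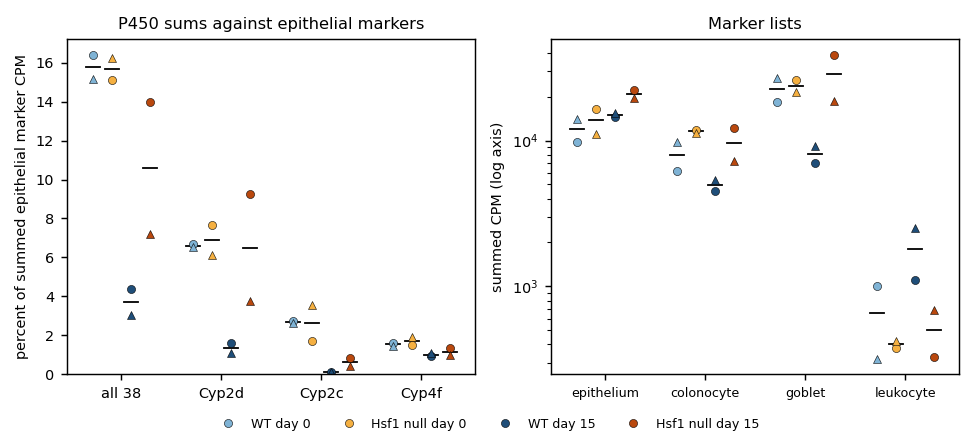
Left, the summed CPM of all 38 members, Cyp2d, Cyp2c and Cyp4f as a percent of the summed CPM of 8 epithelial markers, and right, the summed CPM (log axis) of markers of epithelium, absorptive colonocytes, goblet cells and leukocytes, for each mouse with a line at the group mean (circle, replicate 1; triangle, replicate 2). All members are at 4.39% and 3.05% of the epithelial sum in WT day 15 and at 7.21% or more elsewhere.

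Other marker lists moved as well. Smooth muscle had 5 of 7 markers called lower in WT at day 15, with a sum of 7103 and 9741 CPM in WT day 0 and 3639 and 2105 CPM in WT day 15, and distal hindgut had 2 of 4 (Hoxa13 and Hoxd12). Between the treated genotypes edgeR called 0 smooth muscle markers, with 6 of 7 lower in WT at an unadjusted p under 0.05 and 2 called lower by DESeq2, and Hoxd12 was called lower in WT (log2 fold change -2.54, adjusted p = 0.0457, edgeR). Of the 6 hepatocyte markers with counts, Alb and Cps1, at or below 21.2 CPM in every library, were called lower over time in both genotypes, and Cps1 was called lower in WT between the treated genotypes (-2.94, adjusted p = 0.0228, edgeR). At an unadjusted p under 0.05 (edgeR), 4 were lower and 1 higher over time in WT, and 2 lower and 1 higher in Hsf1 null mice. DESeq2 called 1 hepatocyte marker higher over time in Hsf1 null mice. Ttr, at 68.2 and 99.6 CPM in WT day 0, 163 and 96.3 in Hsf1 null day 0, 33.9 and 4.33 in WT day 15, and 61.1 and 46.3 in Hsf1 null day 15, and Tat were not called by edgeR. The part of these cells in the P450 values was not tested. Small intestine enterocyte markers summed to between 3.04 and 17.8 CPM in all libraries, with 1 of 3 tested (Fabp6) called lower in WT than in Hsf1 null mice at day 15 by edgeR. Of the 7 fibroblast markers edgeR called 1, Dcn, lower in Hsf1 null mice at day 15 than at day 0, and between the treated genotypes it called 0 (2 higher in WT at an unadjusted p under 0.05 and 2 by DESeq2).

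P450 enzymes work with electron donors and need heme. Of 9 tested partners and epoxide hydrolases, 1 was called lower in WT (Pgrmc1, a heme-binding partner of P450 enzymes) and 2 in Hsf1 null mice (Pgrmc1 and the soluble epoxide hydrolase Ephx2), and between the genotypes edgeR called 0 at day 15 (3 lower in WT at an unadjusted p under 0.05, 1 by DESeq2) and 0 at day 0 (2 lower in WT at an unadjusted p under 0.05, 0 by DESeq2). P450 oxidoreductase, Por, was at 79.9 and 109 CPM in WT day 0 and 77.2 and 62.4 in WT day 15, with a log2 fold change of -0.43 (SE 0.36, adjusted p = 0.468, edgeR). Of 12 genes of heme synthesis and breakdown, 1 was called, Alas1, the rate-limiting enzyme of heme synthesis, which was at 106 and 96.9 CPM in WT day 0 and 311 and 285 in WT day 15 (log2 fold change 1.56, SE 0.24, adjusted p = 0.00925, edgeR). In Hsf1 null mice it was at 126 and 150.2 CPM at day 0 and 196 and 247 at day 15 (0.68, SE 0.23, adjusted p = 0.0785, edgeR).

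Among 23 regulators of P450 genes, 6 were called lower and 1 higher in WT, and 6 lower and 1 higher in Hsf1 null mice. Lower in both genotypes were the dioxin receptor Ahr, Hnf4g and the thyroid hormone receptor Thrb. Between the treated genotypes edgeR called 2 lower and 1 higher in WT, and DESeq2 called 5 lower and 1 higher. At an unadjusted p under 0.05 (edgeR) there were 5 lower and 3 higher. The vitamin D receptor Vdr was at 457 and 570.1 CPM in WT day 0, 773 and 545 in Hsf1 null day 0, 106 and 65.4 in WT day 15, and 658 and 297 in Hsf1 null day 15. Its log2 fold change was -2.58 in WT (SE 0.42, adjusted p = 0.0111) and -2.47 between the treated genotypes (SE 0.42, adjusted p = 0.0225, both edgeR), and the fatty acid receptor Ppara was called in the same comparisons, at -2.50 and -2.57 (adjusted p = 0.0301 and 0.0442, edgeR). As for Cyp2f2 and Cyp2d12, both treated WT mice lay below all other mice in Vdr and Ppara. The same held for Ppargc1a, Thrb, Nr1i2 and Nr1i3. The share of all genes with this pattern was not counted. Between the treated genotypes alone, 26.3% of all genes were lower in WT without overlap.

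Ppargc1a, a coactivator of these receptors, fell in WT (log2 fold change -3.16, SE 0.59, adjusted p = 0.0165, edgeR), from 71.0 and 73.0 CPM to 12.4 and 3.49. Cebpb, a factor of the acute phase, was higher in WT day 15 than in WT day 0 (1.53, SE 0.33, adjusted p = 0.0265) and than in Hsf1 null day 15 (1.42, SE 0.33, adjusted p = 0.0478, both edgeR). In Hsf1 null mice Tiparp, Nfe2l2 and Nr3c1 were called lower and Cdx2 higher. Hnf4a, at 662 and 920 CPM in WT day 0 and 491 and 460 in WT day 15, was not called (log2 fold change -0.73, SE 0.33, adjusted p = 0.182, edgeR), and neither were the drug receptors PXR (Nr1i2, -0.90, SE 0.37, adjusted p = 0.147) and CAR (Nr1i3, -3.81, SE 1.24, adjusted p = 0.0834). Between the treated genotypes edgeR called neither Nr1i2 (-1.13, adjusted p = 0.110) nor Nr1i3 (-3.60, adjusted p = 0.119).

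P450 genes of the other families were set beside these. Of 11 with counts, 6 were tested, and 1, the oxysterol hydroxylase Cyp39a1, was called lower in both WT (log2 fold change -1.46, SE 0.34, adjusted p = 0.0315) and Hsf1 null mice (-1.38, SE 0.33, adjusted p = 0.0299, both edgeR). Between genotypes 0 of the 6 were called by edgeR or DESeq2 at either time, with 2 higher in WT at day 15 and 0 at day 0 at an unadjusted p under 0.05. Cyp51, an enzyme of cholesterol synthesis, was at 132 to 335 CPM.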

How the data were processed

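RNA-seq libraries of 8 distal colons, 2 mice in each of 4 groups, took their group (genotype and day) and replicate number from the sample titles. The authors aligned reads to mm10 with STAR and deposited raw counts per gene symbol. The counting program, the gene annotation and the use of strand are not given in the sources used here, and no reads were analysed. The authors also deposited a second table, a signal per gene in which each count was divided by its sample's DESeq2 size factor. It was used only to check the size factors.

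Counts were normalized by TMM and fitted with edgeR 4.0.16 (R 4.3.3, limma 3.58.1) in 1 quasi-likelihood model of 4 groups, on 14371 genes with a mean normalized count above 5. p-values were adjusted over all of these by the Benjamini-Hochberg method, and a gene was called with an adjusted p below 0.05 and a log2 fold change beyond 1 in either direction. Log2 fold changes are WT over Hsf1 null, or day 15 over day 0. CPM are counts scaled by the TMM-adjusted library size. With 2 mice per group an exact permutation test of 1 gene cannot go below p = 0.333, so single values rest on the spread pooled across genes (prior degrees of freedom 5.97). The labels do not say whether mice shared a litter or cage.

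Sample values are given for every member called in at least 1 of 5 comparisons, the highest member of each subfamily and the 3 highest members, and other members by ranges. The members, gene lists and rules were chosen with earlier results of these data known, and the adipocyte list was added after the values were seen. The script was tested on simulated data. Alternatives were DESeq2 1.42.0, DESeq2 size factors, other filters, no threshold on the fold change, libraries thinned to 2553348 counts, a replicate block, fits of fewer groups and each library left out. Positions and transcripts came from GENCODE M21 on GRCm38, and promoters from RefSeq on GRCm38.p6. Figures and shares were made with Python 3.11.15, scipy 1.17.1 and matplotlib 3.10.9.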

Additional observations from a re-analysis of the deposited data

Results flagged for a closer look

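For 2 members the treated WT mice lay below the untreated WT mice and the treated Hsf1 null mice above the untreated Hsf1 null mice, each without overlap and in different animals at the 2 times. The share of all genes with this pattern was not counted, so it is open whether 2 members exceed the background. Lower values without overlap in WT over time were found for 31.5% of all genes. Cyp2c67 was at 4.51 and 5.56 CPM in WT day 0 and 2.78 and 0.528 in WT day 15, and at 5.67 and 4.67 in Hsf1 null day 0 and 14.1 and 13.0 in Hsf1 null day 15, an interaction of -2.91 on the log2 scale (SE 0.89, unadjusted p = 0.00831, adjusted p = 0.43, edgeR's quasi-likelihood test), which did not pass. Its close copies Cyp2c40 and Cyp2c68 were not higher in treated Hsf1 null mice (log2 fold changes -1.24 and -1.001), although they share many words with it. Cyp4f16, a relative of the leukotriene hydroxylases, was at 41.4 and 67.9 CPM in WT day 0 and 33.8 and 36.5 in WT day 15, and at 51.7 and 38.1 in Hsf1 null day 0 and 77.7 and 55.8 in Hsf1 null day 15, an interaction of -1.18 (SE 0.44, unadjusted p = 0.0228, adjusted p = 0.508, edgeR), which did not pass either.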

How the results depend on the processing

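No alternative turned the direction of a called member. When each library was left out in turn, the number of members called ranged from 3 to 14 in WT over time (13 with all mice), from 0 to 4 in Hsf1 null mice over time (3), from 0 to 14 between treated genotypes (13) and from 0 to 5 for the interaction (0). A fit without replicate 2 of both genotypes at day 0, the smallest libraries, called 0 in each of these. A fit of only the treated mice called 0 between genotypes, and DESeq2 called 7 in the interaction. Counts over all genes moved too, from 1112 to 1737 in WT and from 455 to 1208 between treated genotypes with DESeq2, and to 12 between treated genotypes without either Hsf1 null day 0 library. Replicate numbers name different animals, and the deviations of same-numbered mice correlated at -0.301 (WT day 0 and day 15), 0.202 (Hsf1 null day 0 and day 15), 0.00586 (day 0 genotypes) and 0.157 (day 15 genotypes), so the numbers do not pair the samples. The replicate block gave 10, 3, 0, 11 and 0 calls in the 5 comparisons, and with the WT day 0 mice exchanged, a choice made after seeing the data, it gave 16 in WT over time. Depth limited members under about 1 CPM, where 3 counts equal 1.19 CPM in the smallest library. The cause of these changes was not tested.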
